A study of Mus musculus with 34 samples.

Results

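Open chromatin was compared between mouse embryoid bodies (EB) 12 h after induction of Etv2 with doxycycline and EB of the same time point without doxycycline. Each group comprised 2 samples, and the labels of both samples name 1 common list of ATAC-seq summits. The members are the summits of these 2 lists on chromosomes 1 to 19 and X, 77987 in induced EB and 85498 in uninduced EB, of 707465 summits in all 19 lists of the series. A summit with a summit of the other list within 250 bp was called shared. The remaining 17115 summits of induced EB were called induced-only and the remaining 26015 of uninduced EB uninduced-only.

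EB are clusters that embryonic stem cells form as they differentiate in culture. Both groups are marked as not selected for Flk1, and no cell line, clone, culture or cell composition is given for them. The series text speaks of Etv2 induction, and the labels of the EB samples do not spell out the transgene. Doxycycline was given to one group and not to the other, so an effect of the drug and an effect of Etv2 cannot be told apart here. A separate EB list came from Flk1-positive cells induced for 12 h and was used only to look positions up. In unsorted samples, a position open in more cells and a position more open in each cell cannot be told apart.

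Etv2 is an ETS-family transcription factor that is expressed briefly in mesoderm and is required for the first endothelial and blood progenitors. ETS factors bind DNA around a GGAA core, and Etv2 acts on genes such as Kdr, which encodes the vascular endothelial growth factor receptor Flk1, and on genes of other ETS, SoxF and GATA factors. ATAC-seq uses a transposase that inserts adapters into accessible DNA, and a summit marks a local maximum of the signal within a called peak.

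The upstream bases of 6 genes show what a start site with a list-only summit looks like. They are RefSeq sequences of GRCm38.p6 (the mm10 assembly), read 5′ to 3′ toward the transcription start, with the ETS word AGGAAG or its reverse complement CTTCCT in capitals. The first 4 had an induced-only summit and no summit of uninduced EB in their promoter window of 250 bases before to 50 bases after the start. Erg and Mef2c belong to the list of endothelial transcription factors, and Sema4d and Klhl6 carry the longer word CAGGAAGT (or ACTTCCTG). Gfi1 and Cdx4 had an uninduced-only summit instead. Sema4d, Klhl6 and the choice to print these 6 were picked after their values were seen.
Erg, chr16:95459349-95459598, strand -: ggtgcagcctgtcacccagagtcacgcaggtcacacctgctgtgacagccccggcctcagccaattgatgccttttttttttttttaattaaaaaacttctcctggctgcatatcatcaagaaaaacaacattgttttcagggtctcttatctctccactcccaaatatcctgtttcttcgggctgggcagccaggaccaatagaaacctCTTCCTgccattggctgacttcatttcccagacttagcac
Mef2c, chr13:83523406-83523655, strand +: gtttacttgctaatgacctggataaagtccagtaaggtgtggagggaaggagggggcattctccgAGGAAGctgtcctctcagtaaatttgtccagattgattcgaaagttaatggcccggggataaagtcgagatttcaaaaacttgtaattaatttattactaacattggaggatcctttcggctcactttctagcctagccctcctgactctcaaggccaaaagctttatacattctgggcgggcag
Sema4d, chr13:51756684-51756933, strand -: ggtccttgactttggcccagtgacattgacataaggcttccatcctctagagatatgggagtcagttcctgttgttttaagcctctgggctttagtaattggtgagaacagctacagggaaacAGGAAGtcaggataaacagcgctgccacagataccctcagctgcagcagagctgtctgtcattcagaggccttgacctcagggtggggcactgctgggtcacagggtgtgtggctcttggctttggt
Klhl6, chr16:19983050-19983299, strand -: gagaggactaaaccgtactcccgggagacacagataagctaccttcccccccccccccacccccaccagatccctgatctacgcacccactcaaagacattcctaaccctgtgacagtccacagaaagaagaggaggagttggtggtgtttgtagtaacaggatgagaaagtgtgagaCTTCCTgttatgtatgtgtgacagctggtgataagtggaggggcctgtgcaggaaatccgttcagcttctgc
Gfi1, chr5:107724344-107724593, strand -: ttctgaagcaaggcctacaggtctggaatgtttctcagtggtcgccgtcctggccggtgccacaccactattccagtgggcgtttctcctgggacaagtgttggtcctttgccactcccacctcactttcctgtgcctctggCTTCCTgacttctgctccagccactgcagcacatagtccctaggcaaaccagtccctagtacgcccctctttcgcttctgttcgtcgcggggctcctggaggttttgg
Cdx4, chrX:103321148-103321397, strand +: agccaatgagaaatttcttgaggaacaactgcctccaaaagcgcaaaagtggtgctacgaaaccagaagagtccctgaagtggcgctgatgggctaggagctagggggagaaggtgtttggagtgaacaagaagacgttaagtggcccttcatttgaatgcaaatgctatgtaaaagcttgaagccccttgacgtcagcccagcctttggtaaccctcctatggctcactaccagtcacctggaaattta

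Erg, an ETS factor that maintains endothelial identity, had its summit 167 bases before this start, which lies inside the gene, with a score of 29.4 and the nearest summit of uninduced EB 50.4 kb away. Scores are −log10 q values as deposited. Klhl6, a BTB-kelch gene, had its summit 49 bases before the start (score 17.8, nearest uninduced summit 14 kb away). In Sema4d, a semaphorin gene, the summit lay 104 bases before the start (score 14, nearest uninduced summit 1.91 kb away). The word stood 72 bases before the start in Klhl6 and 127 in Sema4d. It was farther from the summit in the others that had it. It stood at 40 bases in Erg, at 185 in Mef2c (summit at 114) and at 108 in Gfi1 (summit at 159). The bases shown for Cdx4 hold 0 such words. The summits of Erg, Klhl6, Sema4d and Mef2c were also called in Flk1-positive EB. The summit of Mef2c, a MADS-box factor of vessel, heart and muscle, had a score of 23.2, but a summit of uninduced EB lay 427 bp away. Gfi1, a zinc-finger repressor of blood progenitors, and Cdx4, a homeobox gene of posterior mesoderm, had uninduced-only summits with scores of 16.4 and 8.75, and summits of induced EB lay 278 and 331 bp away. Of these the Gfi1 summit was called in Flk1-positive EB and the Cdx4 summit was not.

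Most accessible positions were common to both groups, and those found in 1 list alone were weak. Induced-only summits made up 21.9% of the induced list (exact 95% interval 21.7 to 22.2%), and uninduced-only summits 30.4% of the uninduced list (30.1 to 30.7%). All such intervals cover counting error only, since each group has 1 list and no replicate spread. The median score was 4.61 in each of the list-only classes, against 16.8 for shared summits in the induced list and 20.6 in the uninduced list. A score of at least 10 was reached by 3795 induced-only summits (22.2%) and 4720 uninduced-only summits (18.1%). Many list-only summits lay beside a summit of the other list. Of the induced-only summits 4501 (26.3%) had their nearest partner 250 to 500 bp away, and of the uninduced-only summits 3931 (15.1%). At the other side of the limit, 2359 shared summits of the induced list and 1878 of the uninduced list had a partner at 200 to 250 bp. Across chromosomes the induced-only share ran from 18.6% on X to 23.2% on chromosome 14, and the uninduced-only share from 25.7% on chromosome 19 to 34.7% on chromosome 3.

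Summits found in induced EB alone lay closer to genes than those found in uninduced EB alone, and both lay farther out than shared summits. The median distance to the nearest end of a protein-coding gene was 22179 bp for induced-only and 34515 bp for uninduced-only summits, against 11838 bp for shared summits of the induced list. Within 1 kb of a gene end lay 12.8% (12.3 to 13.3%) of induced-only and 8.15% (7.82 to 8.49%) of uninduced-only summits, and 26.7% of shared ones. The same positions shifted by 300 kb gave 4.06% for induced-only and 3.22% for uninduced-only summits. Inside a gene lay 47.8% of induced-only summits (45.7% after the shift) and 40.1% of uninduced-only summits (40.4% after the shift). Positions more than 50 kb from a gene end made up 33.8% of the induced-only and 43.4% of the uninduced-only class. The gene-end share rested largely on summits with a near partner. Among summits with a score of at least 10 and no partner within 1 kb, called isolated below, 3.21% (2.45 to 4.13%) of 1806 induced-only and 1.88% (1.44 to 2.42%) of 3134 uninduced-only summits were at a gene end.

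**Figure D1:**
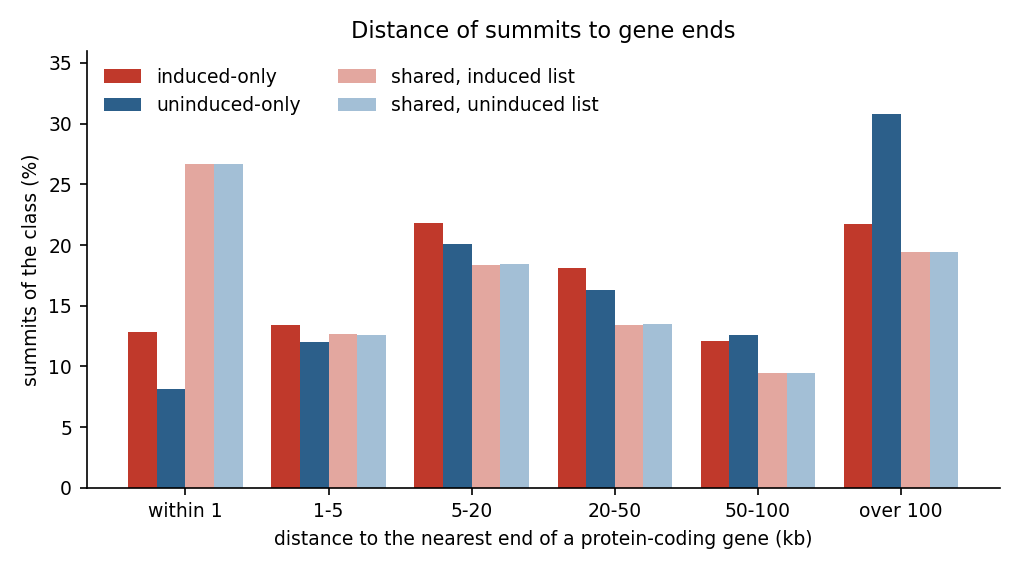
Share of each class of summits (%, vertical axis, bars from 0) by distance to the nearest end of a protein-coding gene (kb). Induced-only summits are at 12.8% within 1 kb and uninduced-only summits at 8.15%, both below the 26.7% of shared summits, and the uninduced-only class is the highest beyond 100 kb.

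The lists differ in length, so equal numbers of the highest-scoring summits were taken from each. Among the 1000 highest, 51 of induced EB and 10 of uninduced EB had no partner within 250 bp in the whole other list. Among the 10000 highest the counts were 217 and 101, and among the 20000 highest 703 and 438. At 40000 they were 3159 and 2759, and at 60000 the order turned, with 8470 in induced and 9417 in uninduced EB. Counting only summits with no partner within 1 kb, the 1000 highest held 8 of induced and 1 of uninduced EB. Most of the 51 thus had an uninduced summit within 1 kb. The 10000 highest held 18 and 7 and the 20000 highest 123 and 110, and at 40000 the order had turned, with 1395 and 1614. Gene ends took 54.3% of the 10000 highest summits in induced EB and 47.3% in uninduced EB.

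Of the isolated summits among the 20000 highest, 119 of 123 from induced EB were also called in Flk1-positive EB, against 4 of 110 from uninduced EB. At 40000 these counts were 1131 of 1395 for induced EB and 144 of 1614 for uninduced EB.

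**Figure D2:**
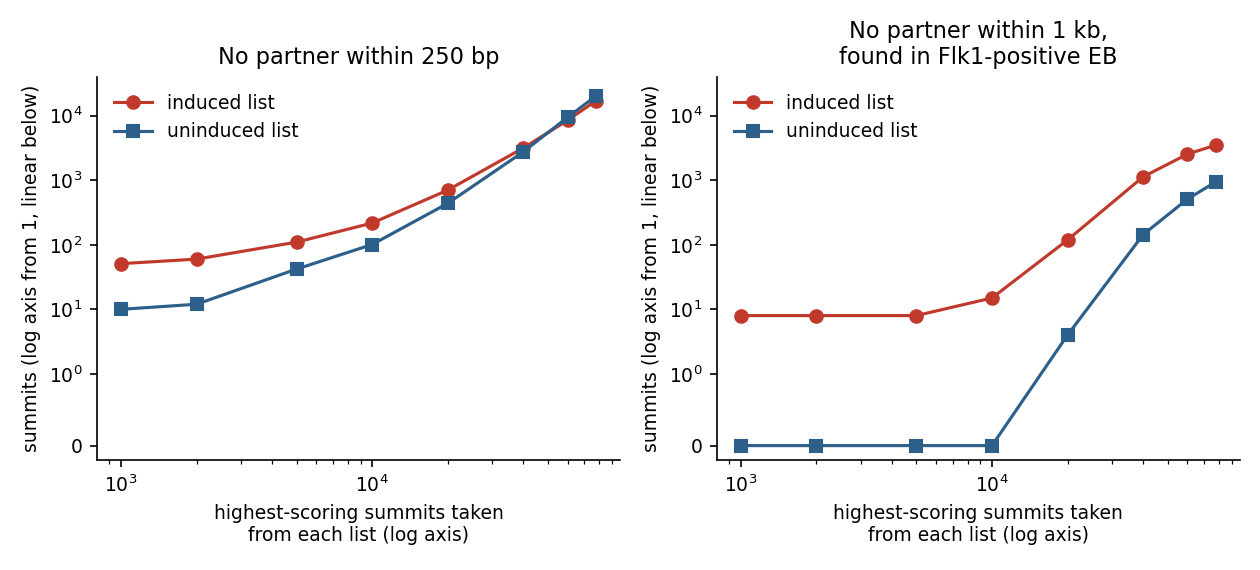
Number of summits (vertical, log axis above 1) against the number of highest-scoring summits taken from each list (horizontal, log axis). Left, summits with no partner within 250 bp in the whole other list, where the induced list lies above the uninduced one up to 40000 (3159 against 2759) and below it from 60000 on. Right, summits with no partner within 1 kb that were also called in Flk1-positive EB, where 119 of induced EB stand against 4 of uninduced EB at 20000.

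A wider comparison of ranks included shared positions. Of the 20000 highest-scoring summits of induced EB, 315 had no summit within 1 kb among the 40000 highest of uninduced EB, and in the opposite direction there were 519. In the Flk1-positive list 311 of the 315 (98.7%, 96.8 to 99.7%) were found, and 198 of the 519 (38.2%, 34 to 42.5%). Among the 20000 highest of the Flk1-positive list were 218 of the 315 and 2 of the 519. Nearer the top of the lists the shares found anywhere in the Flk1-positive list lay closer together. Of the 5000 highest against the 10000 highest of the other list, 83 of 86 summits from induced EB (96.5%) and 206 of 214 from uninduced EB (96.3%) were in the Flk1-positive list. Of the 10000 against the 20000 highest the shares were 96.8% and 80.4%. The counts among the highest Flk1-positive summits still differed. Among its 5000 highest were 27 of the 86 and 2 of the 214. Among its 10000 highest were 69 of 125 from induced EB and 1 of 347 from uninduced EB. Few list genes were nearest to the 315 or the 519, and no share over all genes was computed. For vessel receptors and ligands the counts were 6 and 3 of 30 genes, for endothelial transcription factors 2 and 2 of 20, for junction and surface genes 1 and 0 of 20, for primitive streak and mesoderm genes 1 and 3 of 26, and for both blood lists 0 and 0. The vessel count includes Jag1 in each direction, from summits 303 kb (induced EB) and 549 kb (uninduced EB) from the gene. The positions described next were picked after their values were seen. Near Flt1, which encodes VEGF receptor 1, a summit inside the gene (chr5:147658025) had rank 19619 and a score of 34.7, with no partner in uninduced EB. Near Aplnr, the apelin receptor gene, a summit 1.08 kb outside the gene (chr2:85141004) had rank 16824. Inside Angpt1, a ligand of the Tie2 receptor, a summit (chr15:42510034) ranked 10508 in induced EB and 50424 in uninduced EB. In the opposite direction, a summit 45.2 kb from Eomes, a T-box factor of early mesoderm and endoderm (chr9:118432953), ranked 46450 in induced EB and 5591 in uninduced EB. Summits near Gsc and Fgf8, a homeobox and a growth factor gene of the primitive streak, were at ranks 19934 and 19725 of uninduced EB, and of these 2 the one near Fgf8 had a partner in induced EB, at rank 75634. Counted within 50 kb of the gene, however, Gsc had 5 induced-only and 3 uninduced-only summits and Fgf8 3 and 2, while Eomes had 0 and 4. Vessel genes were found on the uninduced side too. A summit inside Angpt2, for a second Tie2 ligand, ranked 14810 in uninduced EB with no partner in induced EB, and one inside Elk3, an ETS factor gene, ranked 43235 in induced EB and 18215 in uninduced EB. Conversely, a summit 14.4 kb from Evx1, a homeobox gene of the primitive streak, ranked 17261 in induced EB and 50950 in uninduced EB.

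Induced-only positions were found in Flk1-positive EB cells more often than uninduced-only positions. Of induced-only summits 35.0% (34.3 to 35.7%) had a summit of the Flk1-positive list within 250 bp, and of uninduced-only summits 10.6% (10.3 to 11%). Shared summits of the induced list were found in 72.9% of cases. Positions shifted by 300 kb gave 1.54% for induced-only and 1.17% for uninduced-only summits. The Flk1-positive cells are themselves induced EB cells, and the labels do not say whether they came from the same cultures. The difference was present in every score range. At scores of 5 to 10 the shares were 41.8% for induced-only and 11% for uninduced-only summits, and at 10 to 20 they were 66.2% and 17.6%. Above 50 they were 75.2% (70.4 to 79.6%) and 59.8% (53.0 to 66.4%), and there 219 summits made up the uninduced-only class. Summits more than 5 kb from a gene end gave 33.1% for induced-only and 7.79% for uninduced-only. Isolated summits gave 75.6% (73.5 to 77.5%) for induced-only and 8.58% (7.63 to 9.62%) for uninduced-only.

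**Figure D3:**
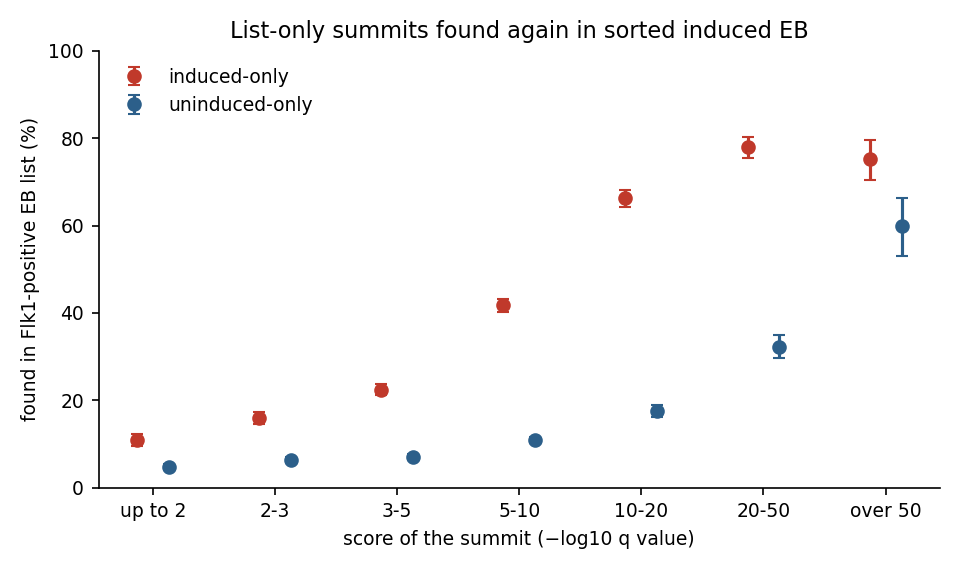
Share of induced-only (red) and uninduced-only (blue) summits with a Flk1-positive EB summit within 250 bp (%, vertical axis) by score range. Points are shares and bars exact 95% intervals for counting error. The induced-only share is the higher one in each range, with 66.2% against 17.6% at scores of 10 to 20.

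The same isolated positions were looked up in other cells of the series. In fibroblasts (MEF) 1 day after induction 15.9% (14.2 to 17.7%) of isolated induced-only and 3.48% (2.86 to 4.18%) of isolated uninduced-only summits were found. In Flk1-positive MEF of day 7 the shares were 12.7% (11.2 to 14.4%) and 1.63% (1.21 to 2.13%). In uninduced MEF, the longest of these 3 MEF lists, they were 8.86% (7.59 to 10.3%) for induced-only and 6.0% (5.19 to 6.89%) for uninduced-only summits. In Brg1-floxed EB of day 4 without 4-hydroxytamoxifen, which the labels also describe as given doxycycline, the order for isolated summits was the opposite. There 9.97% and 5.15% of isolated induced-only summits were found in the 2 replicates, and 14.8% and 9.0% of isolated uninduced-only summits. Over all list-only summits the order was not turned, with 8.34% and 5.80% of induced-only and 7.63% and 4.67% of uninduced-only summits found.

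Around genes of the endothelium, more genes leaned to the induced list than to the uninduced list. Summits were counted within 50 kb of each gene, and a gene leaned to induced EB when it had more induced-only than uninduced-only summits. A counted summit can lie nearer to another gene. Of 21036 protein-coding genes with a summit in range, 30.6% leaned to induced and 43.2% to uninduced EB. With both lists cut to the same length these shares were 38.9% and 33.0%, so the direction for all genes depends on list length. Of the 70 genes in 3 vessel lists, 39 leaned to induced and 19 to uninduced EB, and 47 and 14 with equal list lengths. The other lists set beside them hold markers of further cell types that EB can contain. A summit lay within 50 kb of every gene of these lists except 1 of 20 fibroblast genes, so the presence of summits does not tell the cell types apart. No test was possible, and the counts describe these 2 lists.

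Of 20 endothelial transcription factor genes 14 leaned to induced and 4 to uninduced EB, with a median difference of 1 summit per gene against 0 over all genes. The 4 highest were Bcl6b with 6 induced-only and 2 uninduced-only summits, Sox18 with 4 and 0, and Elk3 and Erg with 4 and 1 each. Bcl6b was the nearest gene of 2 induced-only summits, Sox18 of 1, Elk3 of 4 and Erg of 3. Of the 4 induced-only summits at Erg, 2 lay within 250 bp of each other. Bcl6b encodes a zinc-finger repressor, Sox18 a SoxF factor of vessel and lymphatic development, and Elk3 an ETS repressor. The 3 lowest were Mef2c with 2 induced-only and 6 uninduced-only summits, Tbx20, a T-box factor of heart and endocardium, with 2 and 5, and the hypoxia factor gene Epas1 with 2 and 3. Isolated summits were counted separately. An isolated induced-only summit lay near 10 of the 20 genes, an isolated uninduced-only one near 4, and each of the 10 had at least 1 that was also found in Flk1-positive EB. Over all genes 10.4% had an isolated induced-only and 15.2% an isolated uninduced-only summit. The other vessel lists were not alike in this. For receptors and ligands the counts were 13 and 9 of 30 genes, and for junction and surface genes 4 and 7 of 20, where the uninduced-only count is the higher. The 20 endothelial transcription factor genes also had more summits of any kind, with a median of 9.5 in the induced list against 6 over all genes. This median was 10 for receptors and ligands and 9 for junction and surface genes.

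Of 30 vessel receptor and ligand genes 15 leaned to induced and 10 to uninduced EB. Adgrf5, an adhesion receptor gene of endothelium, had 4 isolated induced-only summits, with scores of 13.3 to 23.9. S1pr1 had 4 as well, 2 of them within 250 bp of each other. Acvrl1, the ALK1 receptor gene, had 5 induced-only and 1 uninduced-only summits, none of them isolated with a score of 10. The 3 lowest were Calcrl, the adrenomedullin receptor gene, with 1 induced-only and 9 uninduced-only summits, the adhesion receptor gene Adgrl4 with 1 and 6, and Angpt1 with 2 and 7. Of 20 junction and surface genes 10 leaned to induced and 5 to uninduced EB. Cd34, a sialomucin gene of endothelial and blood progenitors, had 7 induced-only and 1 uninduced-only summits, none of them isolated. Cldn5, Esam and Mmrn2, a tight junction gene, an adhesion gene and a matrix gene of endothelium, each had 2 more induced-only than uninduced-only summits. Cdh5, encoding VE-cadherin, had 3 induced-only and 5 uninduced-only summits, but the induced-only summit with the highest score (18.2) lay 9 bp inside the gene's end. Emcn, for endomucin, had 0 and 3, and Stab1, a scavenger receptor gene, 0 and 2.

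**Figure D4:**
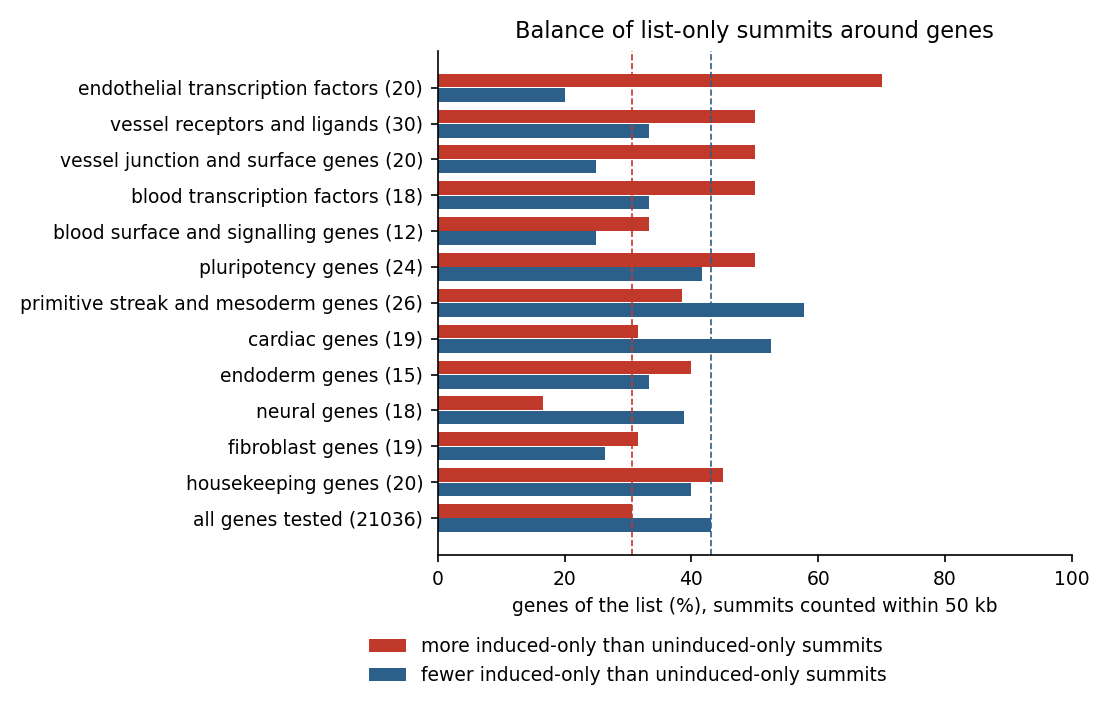
Share of the genes of each list (%, horizontal axis, bars from 0, number of genes with a summit in range in brackets) with more (red) or fewer (blue) induced-only than uninduced-only summits within 50 kb. Dashed lines mark the shares over all genes, 30.6% and 43.2% (38.9% and 33.0% with equal list lengths), and of the 20 endothelial transcription factors 14 and 4 fall in these classes.

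At single vessel genes the induced-only summits of highest score were mostly found again in Flk1-positive EB. The same held for all induced-only summits of such scores. Of these 66.2% were found at scores of 10 to 20 and 77.9% at 20 to 50. Kdr was the nearest gene of 10 induced-only and 0 uninduced-only summits. Of its 3 isolated summits the one with a score of 15.4 lay inside the gene, and those with scores of 18.7 and 12.3 lay 23.2 and 37.3 kb outside it. Of the 6 induced-only summits within 50 kb, 5 were in the Flk1-positive list, and the exception had a score of 3.35. Since Kdr encodes Flk1, by which those cells were chosen, this is not an independent observation. S1pr1, for the sphingosine 1-phosphate receptor of endothelium, had 4 induced-only summits between 5.72 and 36.8 kb outside the gene, with scores of 10.9 to 23.0, and all 4 were in the Flk1-positive list. Of these 4, 2 lay within 250 bp of each other, at 36.65 and 36.79 kb. At Fli1, an ETS factor gene of blood and endothelium, the counts balanced at 4 induced-only and 4 uninduced-only. All 4 induced-only summits had scores of at least 15 and were in the Flk1-positive list. Of the 4 uninduced-only ones, 2 had a partner in induced EB within 300 bp and the other 2 had scores of 4.09 and 3.09. At Etv6, an ETS repressor gene, 2 summits inside the gene had scores of 54.7 and 13.8. Eng, for the TGF-beta co-receptor endoglin, had 6 induced-only and 0 uninduced-only summits, of which only that inside the gene at 9.35 kb from its lower end reached a score of 10 (26.9). Eng was the nearest gene of 1 induced-only summit.

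**Figure D5:**
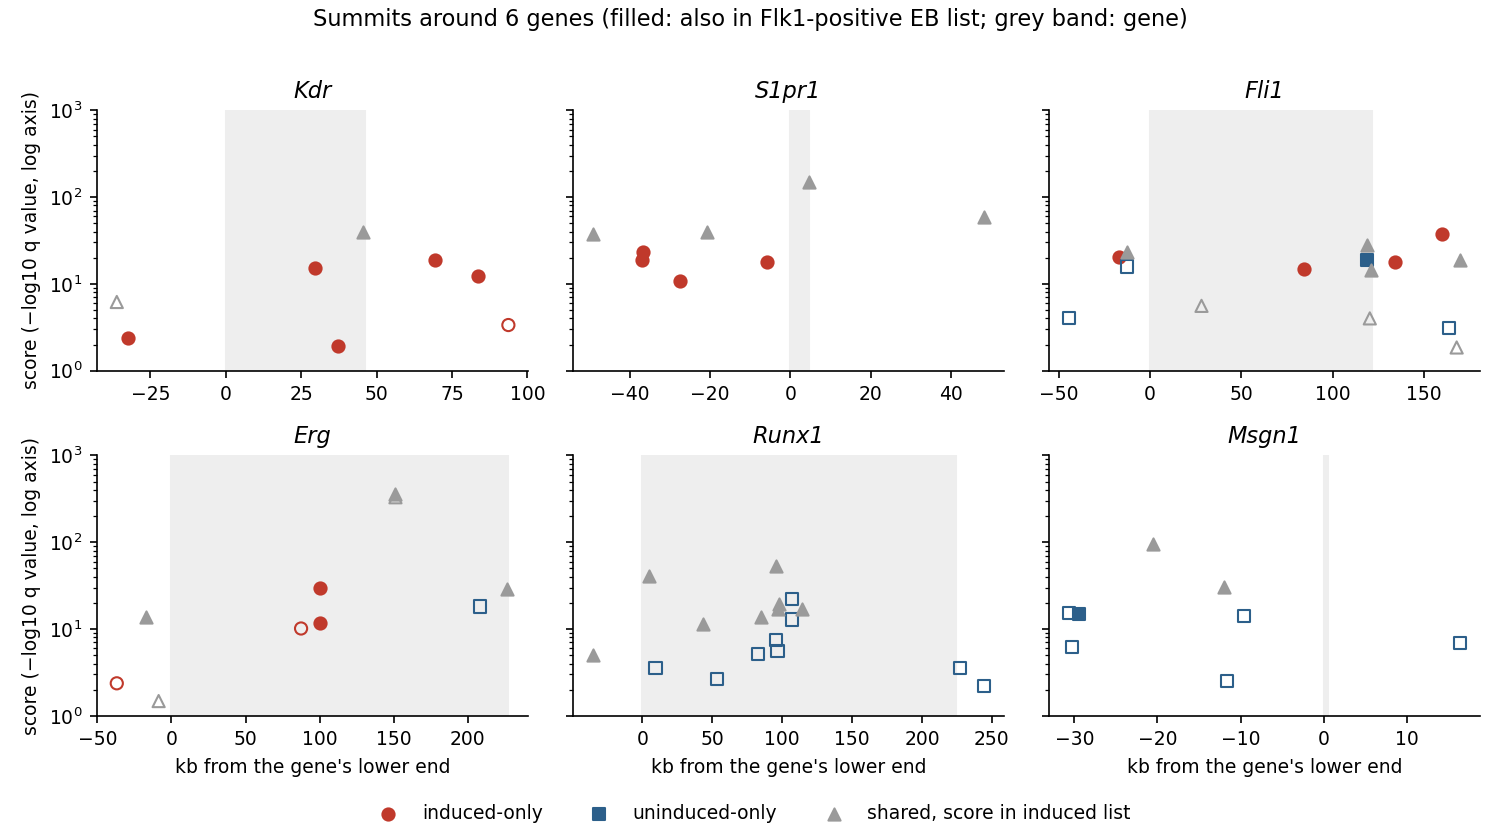
Summits around Kdr, S1pr1, Fli1, Erg, Runx1 and Msgn1 by distance from the gene's lower end in the genome (kb) and score (−log10 q value, log axis). Red circles are induced-only, blue squares uninduced-only and grey triangles shared summits, filled where the Flk1-positive EB list has a summit within 250 bp. Runx1 has 0 induced-only and 9 uninduced-only summits, and Kdr 6 and 0.

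Among 18 blood transcription factor genes 9 leaned to induced and 6 to uninduced EB. Cbfa2t3, a corepressor gene, had 5 induced-only and 0 uninduced-only summits, Klf1, an erythroid factor gene, 6 and 1, Lyl1, a relative of Tal1, 9 and 4, and Lmo2, a bridging factor of the Tal1 complex, 4 and 0. Of these 4, Lyl1 had 2 isolated ones and Cbfa2t3 had 1 (score 19.5). Many of the counted summits lay nearer to other genes. Klf1 was the nearest gene of 0 induced-only summits and Lyl1 of 1, against 3 for Cbfa2t3 and 5 for Lmo2. The highest summit of Lmo2 (score 39.5) had a partner 401 bp away, and that of Tal1 (12.9) one at 1987 bp. Gata2, a factor of blood stem and progenitor cells, had 4 induced-only and 2 uninduced-only summits. Runx1, the regulator of definitive blood formation, had 0 induced-only and 9 uninduced-only summits. The 2 Runx1 summits with the highest scores, 22.3 and 12.9, lay inside the gene, 7466 and 7150 bp from the nearest induced summit, and neither was in the Flk1-positive list. Nfe2, a factor of platelet formation, had 1 and 6, and the erythroid factor gene Gata1 had 1 and 5. Gata1 was the nearest gene of 0 induced-only and 0 uninduced-only summits. Of 12 blood surface and signalling genes 4 leaned to induced and 3 to uninduced EB, with the erythropoietin receptor gene Epor at 6 and 1 (nearest gene of 1 and 0). An isolated induced-only summit lay near 1 of these 12 and an isolated uninduced-only one near 2, shares close to those over all genes (10.4% and 15.2%).

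Genes of earlier and other fates gave no uniform picture. Primitive streak and mesoderm genes leaned to induced EB in 10 and to uninduced EB in 15 of 26 cases (11 and 12 with equal list lengths). Msgn1 of presomitic mesoderm had 0 induced-only and 6 uninduced-only summits, with scores up to 15.4, and 3 of them were isolated. Hand1, a factor of lateral mesoderm and heart, had 0 and 4, all with scores under 5. The growth factor genes Fgf3 and Fgf4 are neighbours that share 5 induced-only summits, and they had 5 and 1 and 7 and 3. Mesp1, a factor of cardiac mesoderm, had 1 and 2. Pluripotency genes leaned to induced EB in 12 and to uninduced EB in 10 of 24 cases, and the members named here are transcription factor genes. Nr5a2 had 4 and 0 summits, Pou5f1, which encodes Oct4, 5 and 2, Prdm14 0 and 4, Nanog 3 and 6 and Klf5 0 and 5. Cardiac genes leaned to induced EB in 6 and to uninduced EB in 10 of 19 cases, an order that turned to 9 and 7 with equal list lengths. The myosin genes Myh6 and Myh7 are neighbours and share 5 induced-only summits, so their 6 and 0 and 5 and 1 are not separate counts. Neural genes leaned to induced EB in 3 and to uninduced EB in 7 of 18 cases, which turned to 7 and 4 with equal list lengths. The counts for induced and uninduced EB were, for endoderm genes 6 and 5 of 15, and for fibroblast genes 6 and 5 of 19. Housekeeping genes leaned to induced EB in 9 and to uninduced EB in 8 of 20 cases, so a surplus of induced-only summits was not confined to vessel genes. The transferrin receptor gene Tfrc had 6 and 0, but was the nearest gene of only 1 induced-only summit. Gapdh had 1 and 3 and Actb 1 and 2. Etv2 itself had 0 induced-only summits and 1 uninduced-only summit with a score of 5.15.

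Outside the lists, the protein-coding gene with the largest surplus of induced-only summits was Dlc1, a tumour suppressor gene, with 14 induced-only and 0 uninduced-only summits within 50 kb. Foxp1, a forkhead factor gene, had 11 and 2, Prkch, a protein kinase C gene, 12 and 3, and Arhgap31, which encodes a GTPase-activating protein for Rac1 and Cdc42, 8 and 0. The genes with the largest deficit were long neuronal genes, Nrxn3 with 14 and 38 and Dlg2 with 15 and 36. These 6 were chosen after their values were seen. The 17115 induced-only summits had 7969 nearest genes and the 26015 uninduced-only summits 9189, and 5163 genes were in both sets, which is 64.8% of the genes of the induced-only and 56.2% of those of the uninduced-only class. Genes nearest to at least 10 summits of the class took 8.38% of induced-only and 27.6% of uninduced-only summits. The nearest-gene count was led in the induced-only class by Gpc5 with 30, Adgrl2 with 28 and Adam6a with 25 summits. The same genes were nearest to more uninduced-only summits, 41, 36 and 40. In the uninduced-only class the count was led by Zfp386 with 48, Pcdh20 with 44 and Lrrc4c with 43. These were nearest to 20, 14 and 20 induced-only summits, so genes leading 1 class also held many summits of the other. Within 50 kb Adam6a had 0 induced-only summits against the 25 assigned to it, and Zfp386 had 3 uninduced-only summits against 48, so most of those assigned to these 2 genes lay farther away.

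The list-only summits with the highest scores were of another kind. Of the 20 highest in each class, 14 induced-only and 19 uninduced-only summits had a partner of the other list within 1 kb. The highest induced-only summit, with a score of 5385, lay 310220 bp from Alkbh8 in a peak with 89 summits, and 4 of the 20 came from it. The highest isolated one lay inside Chl1, a neural adhesion gene (chr6:103649185), with a score of 5350 and no summit of uninduced EB within 16216 bp. It was called in all 10 other lists examined, with scores of 2115 to 5454, and those lists include uninduced MEF. The isolated summits nearest to Myl12b, Wls, Rimbp3 and B230307C23Rik were also in all 10. Among the 11 isolated induced-only summits with a score of at least 100, 8 were in the uninduced MEF list. In the uninduced-only class 2 summits met the same limits, and that nearest to Dpy19l2 (score 602) was in no other list. The other summits with the highest scores in the uninduced-only class included one near Gm2244 (score 8878) in a peak with 9 summits and one near Aga (411), both with a partner within 346 bp. Among isolated induced-only summits with scores under 100, those near Magi3 (93.1), Fzd10 (82.1) and Mecom (74.1) were found in the Flk1-positive EB list and in none of the other 9. These 3 were chosen after their values were seen.

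Words for 12 motifs were counted in promoter windows, and the ETS word was more frequent with an induced-only than with an uninduced-only summit. Of 32619 promoter windows, 554 held an induced-only and no uninduced summit, 384 an uninduced-only and no induced summit, and 7394 summits of both lists. AGGAAG or CTTCCT stood in 39.7% (35.6 to 43.9%) of the first kind, in 28.6% (24.2 to 33.5%) of the second and in 31.9% of windows with both, against 35.2% of all windows. The longer word CAGGAAGT or ACTTCCTG, which contains it, stood in 6.50% (4.59 to 8.88%), 1.56% (0.576 to 3.37%) and 3.15%, against 3.35% of all windows. The AP-1 word TGANTCA stood in 5.23% (3.53 to 7.43%) of induced-only and 8.85% (6.21 to 12.2%) of uninduced-only windows, against 7.85% of all windows, and the intervals overlap. The GATA word AGATAA or TTATCT stood in 10.3% of induced-only and 8.33% of uninduced-only windows, against 11.2% of all windows, with overlapping intervals. The CTCF core word AGGGGGC stood in 18.8% of induced-only and 15.9% of uninduced-only windows against 10.7% of all windows, and the KLF word GGGCGTGG in 8.30% and 5.99% against 5.36%. Both thus exceeded all windows by a larger ratio than AGGAAG did in induced-only windows, and with each of them the shares in both classes were above that of all windows. The other words, for FOX, SOX, E-box, octamer, T-box and TEAD motifs, had overlapping intervals between the classes. Windows of neighbouring genes and of several starts of a gene overlap, so these counts are not independent. The median GC content was 59.3% in induced-only windows, 58.0% in uninduced-only windows and 63.0% in windows with both. Of induced-only windows 39.0% (34.9 to 43.2%) held a summit of the Flk1-positive list, and of uninduced-only windows 26.6% (22.2 to 31.3%). A match of letters is a description of the window and does not place a bound factor there.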

How the data were processed

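Per the submitters' processing notes, reads were aligned with Bowtie2 2.2.4 to mm10, and MACS2 and HOMER were used. The authors deposited lists of summits with a score, the −log10 of the q value, and every score is above 1.30. How the 2 samples of a group were combined, the transposase shift and the treatment of duplicates are not given in the sources used here. A score grows with depth, so an equal score need not mean an equal signal in the 2 lists. Scores ranked and filtered summits within a list, but the same score limits and ranges were applied to both lists and compared. Read depth was not analysed here, and list length need not follow it.

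After leaving out chromosomes Y and M, 77987 of 78303 summits of induced EB and 85498 of 85800 of uninduced EB remained. Genes and promoters came from RefSeq tables of GRCm38.p6. The code was tested on simulated lists. Python 3.11.15 was used with pandas 2.3.3 and numpy 2.4.6, figures were drawn with matplotlib 3.10.9, and exact Clopper-Pearson intervals at 95% came from scipy 1.17.1.

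The comparison, gene lists and rules were chosen with earlier results of these data known. The text gives examples from a set that holds, per list, the 4 highest and 3 lowest by induced-only minus uninduced-only summits, the nearest genes of the 10 strongest summits and the 10 most frequent nearest genes of each class, and 12 fixed genes. Other named genes were chosen after their values were seen.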

Additional observations from a re-analysis of the deposited data

How the results depend on the processing

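Each group has 1 list for both samples, so no replicate could be left out. No paired analysis was possible because both replicates of a group name the same list. ETS words at the summits themselves were not searched, since no genome was used here. With a sharing distance of 100 bp induced-only summits numbered 28102, and 17.2% of induced-only and 12.3% of uninduced-only summits lay at gene ends, while 45.6% and 24.0% were found in Flk1-positive EB. With 1000 bp the number was 10963, and these shares were 4.21% and 3.15%, and 32.1% and 5.58%. With a score of at least 10 in both lists there were 6999 induced-only and 12106 uninduced-only summits, with 21.4% and 11.2% at gene ends and 72.1% and 37.7% in Flk1-positive EB. Equal list lengths gave 8.72% of uninduced-only summits at gene ends and 12.2% in Flk1-positive EB. With 1 summit per peak the shares at gene ends were 9.55% for induced-only and 6.24% for uninduced-only, and in Flk1-positive EB 37.8% and 12.6%. A limit of 5 kb for a gene end gave 26.2% and 20.2%. Some alternatives were added after seeing the data. Isolated summits gave 3.21% and 1.88% at gene ends and 75.6% and 8.58% in Flk1-positive EB. With them 22 vessel genes leaned to induced and 13 to uninduced EB. Summits over 5 kb from a gene end gave 33.1% and 7.79% in Flk1-positive EB. The last alternative kept, of the 40000 highest-scoring summits of each list, those with no partner within 250 bp in the whole other list. There 28 vessel genes leaned to induced and 5 to uninduced EB, beside 17.7% and 12.7% of all genes. In each of these settings for which the shares were compared, the induced-only share was the higher one, both at gene ends and in Flk1-positive EB. The rank comparison held 1 exception at gene ends. Of the 20000 highest against the 60000 highest of the other list, 1.80% from induced and 2.29% from uninduced EB were there. With the other rank limits the induced share was the higher one. The number of vessel genes leaning to induced EB was 39 in the reported setting and between 28 and 47 in the others except for isolated summits. Vessel genes leaning to uninduced EB numbered 19 in the reported setting and between 5 and 22 in the others. The share of all genes leaning to induced EB moved as well. It was 30.6% in the reported setting, 8.60% with isolated summits and 38.9% with equal list lengths. The cause of these shifts was not tested. Depth per list is unknown and limits every statement on absence.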
